A study of Mus musculus with 2 samples.

Results

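The 10 genes described here encode secreted glycoproteins that sit between cells and the fibrous matrix: the thrombospondins Thbs1, Thbs2 and Thbs3, the SPARC family members Sparc and Sparcl1, osteopontin (Spp1), tenascin C (Tnc), the fasciclin-domain proteins periostin (Postn) and Tgfbi, and fibronectin (Fn1). They were chosen by gene symbol from a table of 23176 genes, with earlier results of these data known. All 10 were present and had been tested by the authors. Messenger RNA was sequenced in a pair of mouse cell lines from the embryonic day 14 striatum, strain 129SvEv/CD1, each kept for fewer than 15 passages. STHdhQ111 has the genotype HdhQ111/Q111, with an expanded CAG tract in both huntingtin alleles, and STHdhQ7 has the genotype HdhQ7/Q7, with a tract of normal length. Both lines were grown at 33 °C and held at 39 °C for 2 days to stop division. STHdh lines are conditionally immortalised progenitor cells, not neurons. Each line is 1 sample whose title names 3 replicates, and only 1 combined value per line was used here, so no spread between replicates could be computed. With 1 line per genotype, an effect of the huntingtin allele cannot be told apart from other differences between the lines.

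Matricellular proteins are secreted into the matrix but contribute little to its strength. They bind surface receptors such as integrins, CD44 and CD47, and they alter adhesion, migration and the activity of growth factors, among them TGF-beta. Fibronectin is both structural and adhesive: cells bind it through integrins and assemble it into fibrils. In the brain, tenascin C is made by progenitors and glia of the germinal zones, thrombospondins and SPARC-like 1 are made by astrocytes and act on synapse formation, and osteopontin is made by microglia and after injury.

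Many of these proteins carry the arginine-glycine-aspartate sequence that integrins recognise. The codons for it (CGN, AGA or AGG, then GGN, then GAC or GAT, read in frame on the coding strand only) were searched in the longest coding sequence of each gene in GENCODE M21. They occurred in 5 of the 10 genes, against 7.17% of 21877 mouse coding genes. Among coding sequences of at least 2000 bases they occurred in 4 of the 7 glycoprotein genes that long and in 16.3% of 5261 genes. The sites are printed because the presence of these codons is a sequence feature on which the 10 genes differ, and a match is not by itself a site that cells bind. Capitals mark the 9 matched bases, lower case marks the neighbouring codons, and positions are on GRCm38.
Fn1, exon 30, chr1:71606746-71606754, minus strand: gtcactggcCGTGGGGACagtccagca
Fn1, exon 40, chr1:71597443-71597451, minus strand: catgttcccAGGGGAGACgtagactac
Spp1, exon 7, chr5:104439481-104439489, plus strand: cccaacggcCGAGGTGATagcttggct
Thbs1, exon 18, chr2:118122882-118122890, plus strand: ggtgatggcCGAGGTGACgcctgcaaa
Thbs2, exon 18, chr17:14671484-14671492, minus strand: ggtgacggcCGAGGTGACatttgtaaa
Tgfbi, exon 15, chr13:56637155-56637163, plus strand: ccacaagaaCGAGGAGATgagctggca
The first Fn1 site lies in the cell-binding region of fibronectin. No such codons were found in the longest coding sequence of Thbs3, Sparc, Sparcl1, Tnc or Postn.

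The expression values are FPKM, read fragments normalised to transcript length and to sequencing depth, so levels of different genes can be set side by side. All FPKM are the authors' combined values. A gene is referred to as called where the q-value in the authors' deposited table is 0.05 or less. Of the 10 genes 6 were called: Tgfbi and Sparcl1 were higher in STHdhQ111, and Spp1, Tnc, Postn and Thbs2 were lower. Fn1, Sparc, Thbs1 and Thbs3 were not called. Among all 12740 genes with a test, 13.5% were called, with 6.35% higher in STHdhQ111 and 7.17% lower. The median log2 fold change of the 10 genes in the authors' deposited table was -0.42, against -0.06 over tested genes with a fold change, and the median of its absolute size was 2.00, against 0.40. Fewer expressing cells and less RNA per cell cannot be told apart in these bulk samples.

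**Figure D1:**
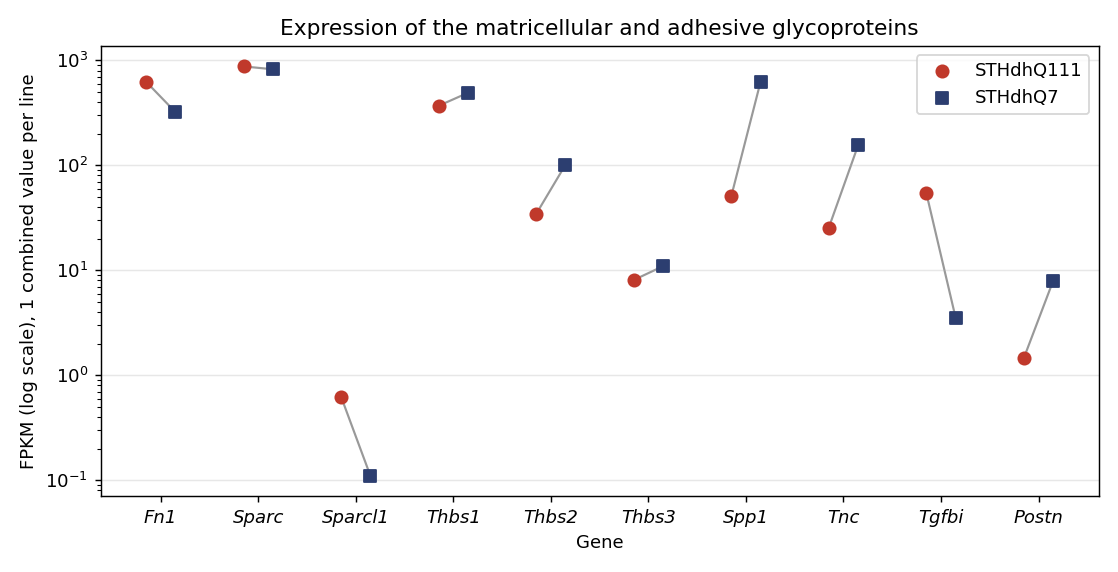
FPKM of each of the 10 genes on a log axis, with STHdhQ111 as circles and STHdhQ7 as squares, 1 combined value per line. Spp1 stands at 50.8 FPKM in STHdhQ111 and 623 FPKM in STHdhQ7, Tgfbi at 54.3 FPKM in STHdhQ111 and 3.54 FPKM in STHdhQ7, while the Sparc pair is nearly level.

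Fibronectin, the main adhesive protein of fibroblast matrix, was among the most abundant of the set. Its gene Fn1 (mm9 chr1:71632097-71699745) had 626 FPKM in STHdhQ111 and 322 FPKM in STHdhQ7. The STHdhQ111 value was the larger, at rank 91 of all genes in that line, against rank 182 in STHdhQ7. The authors' deposited table lists Fn1 with a log2 fold change of 0.96 and q = 0.401. The standard error implied by the authors' statistic was 0.59. The 95% interval from it runs from a 0.868-fold to a 4.35-fold ratio, so neither equal levels nor a several-fold rise is outside it. The value is for the whole gene, so the alternatively spliced forms of fibronectin are not resolved.

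Sparc, a collagen-binding calcium-binding glycoprotein, was the most abundant of the 10 genes in both lines. The gene (mm9 chr11:55208003-55233582) had 876 FPKM in STHdhQ111 and 822 FPKM in STHdhQ7, at rank 56 of all genes in STHdhQ111 and rank 51 in STHdhQ7. The 2 values nearly coincide. Sparc has a log2 fold change of 0.09 in the authors' deposited table, with q = 0.988 and an implied error of 0.49, and the interval of 0.549-fold to 2.07-fold does not show that the levels are equal.

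Its relative Sparcl1, also called hevin, had the lowest FPKM of the 10 genes in both lines. It ranked 11856 among all genes in STHdhQ111 and 13962 in STHdhQ7. Sparcl1 (mm9 chr5:104508128-104543107) had 0.623 FPKM in STHdhQ111 and 0.110 FPKM in STHdhQ7. The STHdhQ111 value was the higher, although both were under 1 FPKM, far below the median of tested genes (9.43 FPKM in STHdhQ111 and 9.81 FPKM in STHdhQ7). The fold change of Sparcl1 in the authors' deposited table was 2.50 on the log2 scale (implied error 0.83, q = 0.0230). With a pseudocount of 1 FPKM the log2 ratio was 0.55. The call was lost at a q of 0.01, under Bonferroni adjustment, and with a minimum of 2-fold on log2(FPKM + 0.5). With genes under a mean of 1 FPKM left out, Sparcl1 was itself removed, so that setting could not test its call. Whether the fold change of Sparcl1 differs from that of Sparc was not tested.

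Among the thrombospondins, multimeric proteins that bind CD47, integrins and matrix proteases, only Thbs2 was called. Thbs2 (mm9 chr17:14802507-14831269) had 34.4 FPKM in STHdhQ111 and 101 FPKM in STHdhQ7. Thbs2 was thus 2.94-fold lower in STHdhQ111, with an interval of 1.69-fold to 5.10-fold, and the authors' deposited table gives it a log2 fold change of -1.55 (implied error 0.41, q = 0.00184). Thbs1, the form best known for activating latent TGF-beta, remained the most abundant thrombospondin in each line. Thbs1 (mm9 chr2:117937658-117952869) had 369 FPKM in STHdhQ111 and 491 FPKM in STHdhQ7. For Thbs1 the authors' deposited table gives a log2 fold change of -0.41 (implied error 0.58, q = 0.876), with an interval from 0.344-fold to 1.65-fold. Thbs3, a pentameric thrombospondin without the type 1 repeats of Thbs1 and Thbs2, was the scarcest of the 3. Thbs3 (mm9 chr3:89019109-89030759) had 8.08 FPKM in STHdhQ111 and 10.9 FPKM in STHdhQ7. For Thbs3 the authors' deposited table gives -0.44 on the log2 scale (implied error 0.42, q = 0.727), with an interval from 0.420-fold to 1.30-fold. All 3 ratios were below 1, and differences between the 3 fold changes were not tested.

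Osteopontin showed the steepest loss of the set. Spp1 (mm9 chr5:104864130-104870072), whose phosphorylated product binds αv integrins and CD44, fell to 50.8 FPKM in STHdhQ111, against 623 FPKM in STHdhQ7. It ranked 1569 among all genes in STHdhQ111 and 78 in STHdhQ7. The level of Spp1 was 12.3-fold lower, with an interval of 6.65-fold to 22.7-fold, and the authors' deposited table gives a log2 fold change of -3.62 (implied error 0.45, q = 1.26e-13). Only 2.26% of tested genes with a fold change had a lower one. Of the 36-base words in the Spp1 transcripts, 86.5% occurred in no other gene, and the rest were shared with a single overlapping annotated gene, Gm42793.

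Tenascin C, a many-armed glycoprotein of the progenitor niche and of wounds that can weaken adhesion to fibronectin, was also lower in STHdhQ111. Tnc (mm9 chr4:63620819-63708049) had 25.5 FPKM in STHdhQ111 and 155 FPKM in STHdhQ7. This is a 6.06-fold lower level, with an interval of 3.41-fold to 10.8-fold, and a log2 fold change of -2.60 for Tnc in the authors' deposited table (implied error 0.42, q = 3.83e-08). Its rank was 3149 in STHdhQ111 and 428 in STHdhQ7.

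The fasciclin-domain pair, Tgfbi and Postn, was called in opposite directions. Both are adhesive proteins that bind integrins and collagen, and both are known to be induced by TGF-beta in other cells. Tgfbi (mm9 chr13:56710964-56740700) rose to 54.3 FPKM in STHdhQ111, against 3.54 FPKM in STHdhQ7. The Tgfbi level was 15.4-fold higher, with an interval of 8.58-fold to 27.5-fold, and the authors' deposited table has a log2 fold change of 3.94 (implied error 0.43) and a q below its precision, printed as 0. Only 1.70% of tested genes with a fold change had a higher one. Postn (mm9 chr3:54165029-54194963) had 1.46 FPKM in STHdhQ111 and 7.93 FPKM in STHdhQ7. Postn was 5.42-fold lower in STHdhQ111, with an interval of 2.16-fold to 13.6-fold, and its entry in the authors' deposited table is -2.44 on the log2 scale (implied error 0.68, q = 0.00391). In STHdhQ111 Tgfbi was the more abundant of the pair, and in STHdhQ7 Postn was.

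**Figure D2:**
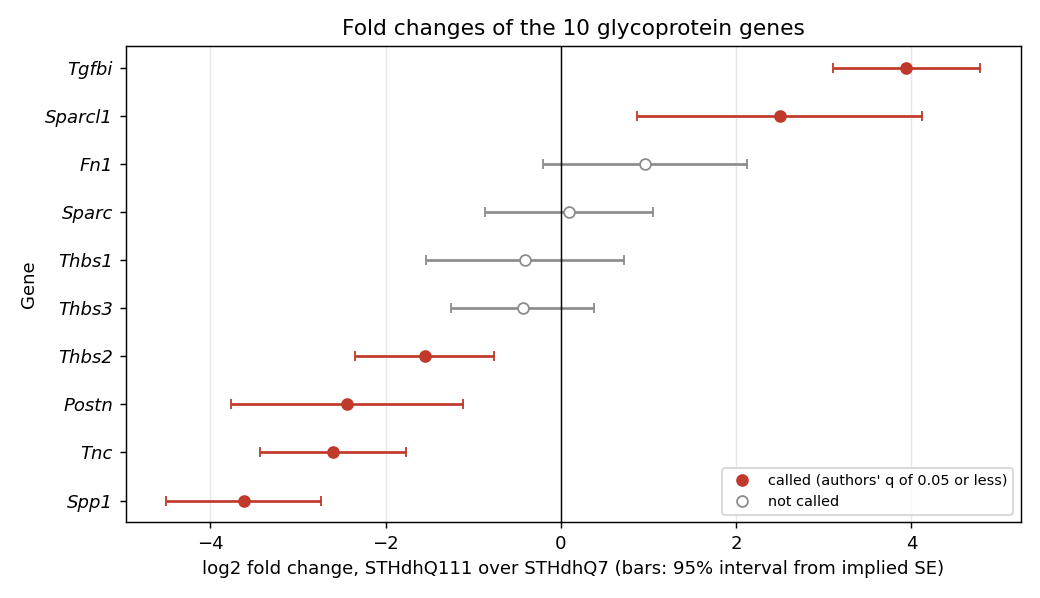
The authors' log2 fold change of each gene, STHdhQ111 over STHdhQ7, with bars for the 95% interval given by the implied standard error. Filled points were called. Tgfbi (3.94) and Spp1 (-3.62) lie at the ends, and the intervals of Fn1, Sparc, Thbs1 and Thbs3 cross 0.

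The calls were set beside the whole table under the other thresholds. At a q of 0.01 or less 5 of the 10 genes were called, against 9.61% of tested genes, and at a q of 0.1 or less 6 were, against 16.1%. Under Bonferroni adjustment 3 remained (Spp1, Tnc and Tgfbi), against 4.53%. With genes under a mean of 1 FPKM left out before adjustment, 5 of the 9 glycoprotein genes left were called, against 12.3% of 11534. With a minimum of 2-fold on log2(FPKM + 0.5) 5 were called, against 13.3%, and after recentring of the fold changes by their median of -0.05 the 6 calls stood, against 13.3% of genes with a fold change.

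Summed over the 10 genes, the FPKM came to 2046 in STHdhQ111 and 2537 in STHdhQ7. Without Spp1 the sums were 1995 in STHdhQ111 and 1913 in STHdhQ7, so Spp1 alone held more than the difference between the lines. Spp1 made up 2.48% of the sum in STHdhQ111 and 24.6% in STHdhQ7. The Fn1 share was 30.6% in STHdhQ111 and 12.7% in STHdhQ7, while Thbs1 held 18.04% in STHdhQ111 and 19.3% in STHdhQ7, an order of the lines that turned round with Sparc left out of the sum. Sparc, the largest component, held 42.8% in STHdhQ111 and 32.4% in STHdhQ7. The 3 most abundant genes were Sparc, Fn1 and Thbs1 in STHdhQ111, with 91.4% of the sum, and Sparc, Spp1 and Thbs1 in STHdhQ7, with 76.3%.

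**Figure D3:**
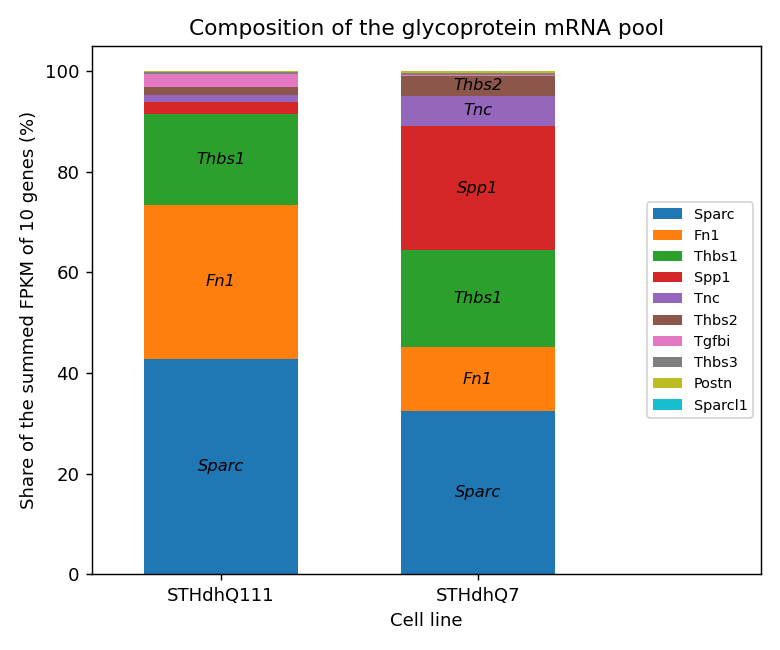
Stacked bars of the share of each gene in the summed FPKM of the 10 genes (percent), STHdhQ111 and STHdhQ7. Spp1 takes 2.48% in STHdhQ111 and 24.6% in STHdhQ7, and Fn1 takes 30.6% in STHdhQ111 and 12.7% in STHdhQ7.

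At a q of 0.05 or less the genes with and without the integrin-binding codons had the same tally of calls. Among all tested genes 13.5% were called. Of the 5 with them, Tgfbi was called higher, Spp1 and Thbs2 were called lower, and Fn1 and Thbs1 were not called. Of the 5 without them, Sparcl1 was called higher, Tnc and Postn were called lower, and Sparc and Thbs3 were not called.

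Sparcl1 and Spp1 bracket a single gene cluster on chromosome 5, which also holds the genes of mineralised-matrix phosphoproteins, and Sparcl1 was called higher while Spp1 was called lower. Between them lie 321 kb of mm9 sequence with Dspp, Dmp1, Ibsp and Mepe. None of these 4 was tested. In STHdhQ111 Dmp1 had 0.0273 FPKM, Ibsp 0.00904 FPKM and Dspp 0.00455 FPKM, and Mepe was listed at 0. In STHdhQ7 Dmp1 had 0.0383 FPKM and Ibsp 1.97e-06 FPKM, and Dspp and Mepe were listed at 0. Next to Spp1 on the other side, Pkd2, which encodes the ion channel polycystin 2, had 44.1 FPKM in STHdhQ111 and 20.7 FPKM in STHdhQ7. Pkd2 was called higher, with a log2 fold change of 1.09 and q = 0.0406 in the authors' deposited table, opposite in sign to Spp1.

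The series concerns DNA methylation, which acts on CpG pairs, although methylation itself was not analysed here. RefSeq promoter windows (GRCm38.p6, from 250 bases before to 50 after a transcription start) were at hand for 7 of the 10 genes: Postn, Sparc, Spp1, Tgfbi, Thbs2, Thbs3 and Tnc. The windows of Spp1 and Tgfbi are printed because these 2 genes changed most, in opposite directions. That of Postn, from its downstream start, is printed because Postn belongs to the family of Tgfbi and was called the other way. Capitals mark each CpG.
Spp1, chr5:104434861-104435160, plus strand: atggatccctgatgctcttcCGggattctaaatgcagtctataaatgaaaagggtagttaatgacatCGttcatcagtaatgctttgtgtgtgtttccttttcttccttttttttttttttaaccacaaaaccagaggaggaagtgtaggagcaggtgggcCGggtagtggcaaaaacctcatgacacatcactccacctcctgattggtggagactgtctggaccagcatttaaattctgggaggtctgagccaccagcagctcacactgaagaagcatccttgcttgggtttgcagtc
Postn, chr3:54360857-54361156, plus strand: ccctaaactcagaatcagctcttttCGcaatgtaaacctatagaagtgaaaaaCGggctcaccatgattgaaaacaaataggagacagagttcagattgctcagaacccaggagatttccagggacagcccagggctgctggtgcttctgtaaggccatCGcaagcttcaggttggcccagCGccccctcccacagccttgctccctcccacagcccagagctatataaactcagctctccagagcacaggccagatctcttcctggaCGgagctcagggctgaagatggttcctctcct
Tgfbi, chr13:56609336-56609635, plus strand: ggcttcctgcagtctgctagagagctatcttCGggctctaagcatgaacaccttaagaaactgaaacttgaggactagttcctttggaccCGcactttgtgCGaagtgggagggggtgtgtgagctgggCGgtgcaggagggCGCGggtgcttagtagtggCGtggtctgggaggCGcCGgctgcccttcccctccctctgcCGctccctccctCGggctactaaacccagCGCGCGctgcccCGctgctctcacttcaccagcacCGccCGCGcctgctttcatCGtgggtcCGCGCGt
The Tgfbi window holds 22 CpG pairs, the Postn window 5 and the Spp1 window 3, against a median of 7 over 32851 mouse promoter windows. The second annotated start of Spp1 also has 3 and the upstream start of Postn 4. Thbs2 and Sparc have 4 each, Thbs3 has 8, and the Tnc windows, from a pair of overlapping starts, have 10 and 16. Of the windows of genes called lower, those of Spp1, Postn and Thbs2 fall under the median and those of Tnc above it.

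A few short motifs were searched on both strands of the same windows. TATAAA occurred in Postn 26 bases before the start, in Spp1 at 211 bases and Thbs2 at 126 bases before it, and in the Tnc windows at 126 and 205 bases, which is the same site counted from both starts, while 13.6% of all windows hold it. GGGCGG, a sequence bound by Sp1, occurred in the windows of Tgfbi, Thbs3 and Tnc and in 35.7% of all windows. The AP-1 motif TGANTCA (7.81% of all windows) and the TEAD motif GGAATG (14.7%) were in none of these windows.

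The receptors of these glycoproteins held called genes in both directions. Of 22 receptor genes listed 17 were tested, of which 1 was called higher and 3 lower, 23.5% against 13.5% of all tested genes, with a median log2 fold change of 0.04. Cd44, a receptor for osteopontin and hyaluronan, had 34.6 FPKM in STHdhQ111 and 94.5 FPKM in STHdhQ7 and was called lower (-1.45 on the log2 scale in the authors' deposited table, implied error 0.42, q = 0.00567). The integrin chain Itga3, part of a receptor for laminin and thrombospondin, had 20.9 FPKM in STHdhQ111 and 42.5 FPKM in STHdhQ7 and was called lower. The heparan sulfate proteoglycan Sdc3 was called higher, with 45.2 FPKM in STHdhQ111 and 18.4 FPKM in STHdhQ7. The calls of Cd44 and Spp1 thus had the same direction, and that of Sdc3 the opposite one. Of the uncalled receptors the most abundant was Calr, a chaperone that at the cell surface takes part in thrombospondin signalling, with 783 FPKM in STHdhQ111 and 969 FPKM in STHdhQ7. Itgb5, which pairs with αv to bind osteopontin and vitronectin, had 198 FPKM in STHdhQ111 and 299 FPKM in STHdhQ7. The receptors that follow lie outside the naming rule and were chosen after their values were seen. Itga4, a chain of a fibronectin and osteopontin receptor and the third receptor called lower, had 0.0977 FPKM in STHdhQ111 and 0.611 FPKM in STHdhQ7. The chains of the main fibronectin receptor were not called: Itga5 had 29.5 FPKM in STHdhQ111 and 18.9 FPKM in STHdhQ7, and Itgb1 had 194 FPKM in STHdhQ111 and 179 FPKM in STHdhQ7. Neither was the thrombospondin receptor Cd47, with 29.2 FPKM in STHdhQ111 and 24.6 FPKM in STHdhQ7. Another thrombospondin receptor, Cd36, was listed at 0.0129 FPKM in STHdhQ111 and at 0 in STHdhQ7 and was not tested.

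The CCN proteins, another matricellular family, were also called in both directions. Of 5 tested members 2 were called higher and 1 lower, with a median log2 fold change of 0.39. That is 60% of the tested members, against 13.5% of all tested genes. Nov (CCN3) rose to 228 FPKM in STHdhQ111, against 8.10 FPKM in STHdhQ7. Wisp2 (CCN5) rose to 41.5 FPKM in STHdhQ111, against 4.82 FPKM in STHdhQ7. Ctgf (CCN2), which promotes adhesion and matrix production, fell to 44.2 FPKM in STHdhQ111, against 237 FPKM in STHdhQ7. The uncalled members were Cyr61 (CCN1), with 269 FPKM in STHdhQ111 and 205 FPKM in STHdhQ7, and Wisp1 (CCN4), with 17.8 FPKM in STHdhQ111 and 18.6 FPKM in STHdhQ7. In the families of the 10 genes themselves, only 4 of 13 further members were tested, with a median log2 fold change of 1.36. Of these 4, 50% were called, against 13.5% of all tested genes. The called ones, Smoc2 and Smoc1, are SPARC relatives, and both were higher in STHdhQ111. Smoc2 had 9.18 FPKM in STHdhQ111 and 3.17 FPKM in STHdhQ7. Smoc1, which lies outside the naming rule and was chosen after its values were seen, had 0.682 FPKM in STHdhQ111 and 0.0387 FPKM in STHdhQ7. The SPARC relative Fstl1, with 94.5 FPKM in STHdhQ111 and 144 FPKM in STHdhQ7, was not called. Tenascin X, Tnxb, with 0.563 FPKM in STHdhQ111 and 0.246 FPKM in STHdhQ7, was not called either.

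Other adhesive and bridging glycoproteins were called higher in 7 and lower in 2 of 16 tested genes, with a median log2 fold change of 0.35. The calls were 56.2% of the tested genes of this list, against 13.5% of all tested genes. Fibulins, which bridge fibronectin, elastic fibres and basement membrane, gave 4 of the higher calls. Fbln1 rose to 58.0 FPKM in STHdhQ111, against 1.196 FPKM in STHdhQ7. Fbln2 rose to 436 FPKM in STHdhQ111, against 39.8 FPKM in STHdhQ7. Fbln7 rose to 3.92 FPKM in STHdhQ111, against 0.302 FPKM in STHdhQ7. Outside the naming rule and chosen after their values were seen, Fbln5 was called higher, with 104 FPKM in STHdhQ111 and 46.3 FPKM in STHdhQ7, and Efemp1 (fibulin 3) was not called, with 135 FPKM in STHdhQ111 and 179 FPKM in STHdhQ7. The matrilins, adaptor proteins of matrix filaments, were called in opposite directions. Matn4 rose to 38.4 FPKM in STHdhQ111, against 2.76 FPKM in STHdhQ7, and Matn2 fell to 14.9 FPKM in STHdhQ111, against 58.1 FPKM in STHdhQ7. Emilin1, an elastic fibre glycoprotein, was called higher, with 132 FPKM in STHdhQ111 and 32.1 FPKM in STHdhQ7. Edil3, an integrin ligand of endothelial matrix, was called lower, with 2.54 FPKM in STHdhQ111 and 12.1 FPKM in STHdhQ7. The most abundant uncalled genes were Ecm1, with 334 FPKM in STHdhQ111 and 248 FPKM in STHdhQ7, and Mfge8, with 275 FPKM in STHdhQ111 and 227 FPKM in STHdhQ7.

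Thrombospondin 1 activates TGF-beta and Tgfbi is named for its induction by it, so the genes of that pathway are given beside them. All 15 listed were tested, of which 4 were called higher and none lower, with a median log2 fold change of 0.73. The signalling receptor Tgfbr2 had 162 FPKM in STHdhQ111 and 39.4 FPKM in STHdhQ7 and was called higher. Its co-receptor Tgfbr3, betaglycan, was called higher, with 32.2 FPKM in STHdhQ111 and 6.07 FPKM in STHdhQ7. Ltbp2, related to the proteins that tether latent TGF-beta, was called higher, with 4.80 FPKM in STHdhQ111 and 1.42 FPKM in STHdhQ7. The ligand Tgfb2 was the fourth, with 12.5 FPKM in STHdhQ111 and 5.77 FPKM in STHdhQ7. The 4 calls are 26.7% of the list, against 13.5% of all tested genes, and no test of the pathway was run. Members with lower values in STHdhQ111 were not called, and those named next were chosen after their values were seen. The latency protein Ltbp4 had 4.62 FPKM in STHdhQ111 and 10.3 FPKM in STHdhQ7 (q = 0.0522 in the authors' deposited table). The ligand Tgfb1 had 32.6 FPKM in STHdhQ111 and 49.1 FPKM in STHdhQ7, and the receptor Tgfbr1 had 3.63 FPKM in STHdhQ111 and 4.63 FPKM in STHdhQ7. The other latency proteins Ltbp1, with 90.7 FPKM in STHdhQ111 and 52.5 FPKM in STHdhQ7, and Ltbp3, with 52.4 FPKM in STHdhQ111 and 65.0 FPKM in STHdhQ7, were not called.

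Proteases that cut these or similar matrix glycoproteins were called in both directions, 4 higher and 2 lower of 13 tested, with a median log2 fold change of 0.56. The calls were 46.2% of the tested proteases, against 13.5% of all tested genes. The gelatinase Mmp2 had 166 FPKM in STHdhQ111 and 62.2 FPKM in STHdhQ7 and was called higher. Its membrane-bound activator Mmp14 was called higher, with 226 FPKM in STHdhQ111 and 91.6 FPKM in STHdhQ7. Adamts1, with 20.9 FPKM in STHdhQ111 and 7.61 FPKM in STHdhQ7, and the urokinase gene Plau, with 39.0 FPKM in STHdhQ111 and 16.0 FPKM in STHdhQ7, were also called higher. Mmp3, stromelysin 1, known to cleave osteopontin and fibronectin, fell to 0.336 FPKM in STHdhQ111, against 19.8 FPKM in STHdhQ7. The collagenase Mmp13 was called lower, with 0.0122 FPKM in STHdhQ111 and 1.84 FPKM in STHdhQ7. The cathepsins Ctsb, with 302 FPKM in STHdhQ111 and 205 FPKM in STHdhQ7, and Ctsl, with 267 FPKM in STHdhQ111 and 288 FPKM in STHdhQ7, were not called.

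**Figure D4:**
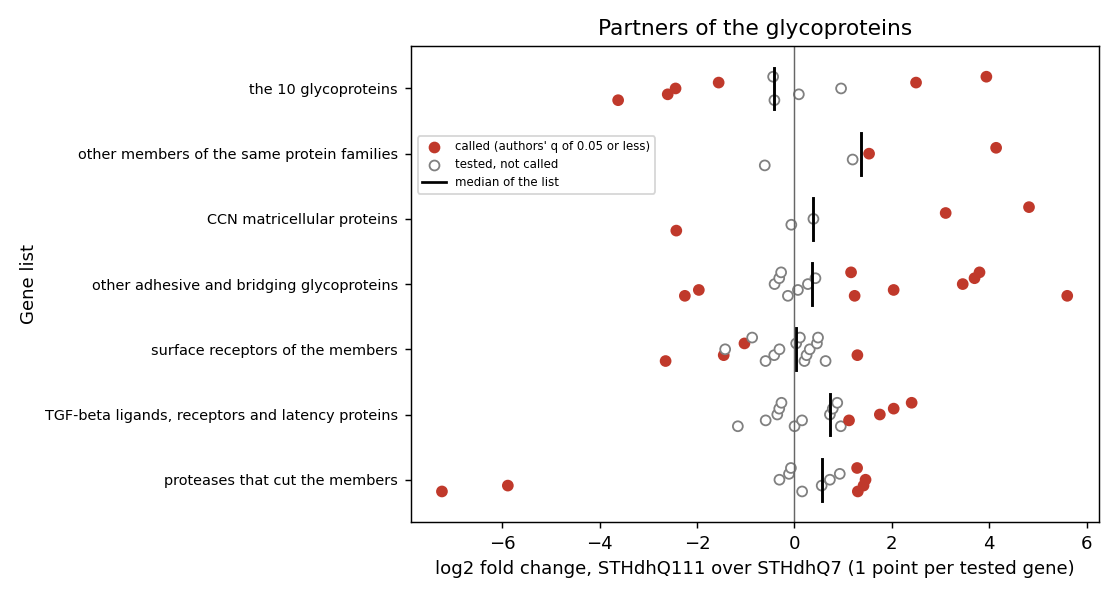
The authors' log2 fold change, STHdhQ111 over STHdhQ7, of each tested gene in the glycoprotein set and in the lists of its families, receptors, TGF-beta pathway and proteases. Filled points were called and bars mark medians, which run from -0.42 for the 10 glycoproteins to 1.36 for their relatives. The median of the relatives rests on 4 tested genes of 13, of which Smoc1 and Tnxb were under 1 FPKM in both lines.

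Markers of cell types were read beside these results. The 9 striatal and neuronal markers in the table had no test. Their FPKM summed to 0.357 in STHdhQ111 and 0.346 in STHdhQ7, so markers of mature striatal neurons were near absent from both lines, which the labels describe as derived from striatum. Of the 12 mesenchymal and mural markers, 10 were tested, 4 were called higher (Col1a2, Col1a1, Des and Pdgfra) and none was called lower. The calls were 40% of the tested mesenchymal and mural markers, against 13.5% of all tested genes. These 12 summed to 2687 FPKM in STHdhQ111 and 1070.1 FPKM in STHdhQ7. Col1a1, with 1487 FPKM in STHdhQ111 and 452 FPKM in STHdhQ7, was the largest in each line. Together with Col1a2 it held most of the difference between these sums. Tagln (37.5 FPKM in STHdhQ111 and 45.3 FPKM in STHdhQ7) and Cspg4 (10.5 FPKM in STHdhQ111 and 16.4 FPKM in STHdhQ7) were not called. Both lie outside the naming rule, were chosen after their values were seen and, like Acta2, were lower in STHdhQ111. Col1a2, a chain of type I collagen, had 533 FPKM in STHdhQ111 and 11.5 FPKM in STHdhQ7, while the smooth muscle actin gene Acta2 (311 FPKM in STHdhQ111 and 342 FPKM in STHdhQ7) and Col3a1 (206 FPKM in STHdhQ111 and 146 FPKM in STHdhQ7) were not called. The called mesenchymal markers had the direction of Tgfbi and not that of Postn, which fibroblasts also make, and their part in the results was not tested. Of 9 astrocyte markers, 4 were tested and 1, Aldoc, was called lower (2.29 FPKM in STHdhQ111 and 9.18 FPKM in STHdhQ7). The 9 summed to 120.0 FPKM in STHdhQ111 and 82.7 FPKM in STHdhQ7, most of it the gap junction gene Gja1 (103 FPKM in STHdhQ111 and 59.7 FPKM in STHdhQ7), and neither Gja1 nor Aldh1l1 (9.29 FPKM in STHdhQ111 and 10.4 FPKM in STHdhQ7) was called. Of the 9 astrocyte markers, 5 were under 1 FPKM in both lines, among them the water channel Aqp4, listed at 0. Slc1a3 had 5.04 FPKM in STHdhQ111 and 2.79 FPKM in STHdhQ7 and was not called. Any relation of these markers to the low Sparcl1 values was not tested. Of 8 endothelial markers, 2 were tested, and the list summed to 1.89 FPKM in STHdhQ111 and 1.21 FPKM in STHdhQ7. Tek was called higher (1.46 FPKM in STHdhQ111 and 0.386 FPKM in STHdhQ7), and Vwf was not called (0.241 FPKM in STHdhQ111 and 0.760 FPKM in STHdhQ7). Among 10 markers of microglia and leukocytes, 8 stayed below 1 FPKM in each line, and Tyrobp was listed at 0 in both. The others, Cd68 (72.4 FPKM in STHdhQ111 and 26.5 FPKM in STHdhQ7) and Laptm5 (1.08 FPKM in STHdhQ111 and 0.175 FPKM in STHdhQ7), were the tested members of the list, and both were called higher. The 10 summed to 74.1 FPKM in STHdhQ111 and 27.0 FPKM in STHdhQ7. Of the tested markers, 25% of the astrocyte, 50% of the endothelial and 100% of the microglial and leukocyte list were called. These shares rest on 4, 2 and 2 tested genes. Microglia can express Spp1, and the part of such cells in the Spp1 values was not tested.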

How the data were processed

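Poly(A) RNA was made into random-primed cDNA libraries, per the labels' protocols, which describe no marking of strand. The mm9 build was used with Cuffdiff, Cufflinks 2.0.2, Bowtie 0.12.7 and TopHat 1.4.0, per the submitters' processing notes. The options and the annotation were not given in the sources used here. Per the file headers, the deposited table holds the authors' FPKM of each line (replicates combined), log2 fold change, test statistic (a score of opposite sign to the fold change) and the authors' p-value and q-value. The depth is unknown. No refit or leave-out of a replicate was possible, and since no label says that the replicates were separate cultures, the spread behind the authors' p-values may be technical.

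The implied standard error is the absolute log2 fold change over the absolute statistic, and 95% intervals are normal. They describe the authors' model, not a spread measured here. The deposited p-value equalled the normal tail of the statistic to within 2.7e-06, and the q-value matched a Benjamini-Hochberg adjustment of it over all tested genes, within 2.2e-06. Locus starts were read as 0-based and raised by 1. No locus of another gene in the table overlaps one of the 10. Of 36-base words of their GENCODE M21 transcripts, 86.5% to 100% occurred in no other gene, on either strand. Promoters and coding sites are on GRCm38 and were not converted to mm9.

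The 10 genes, 11 companion lists and the tests were chosen with earlier results of these data known. The naming rule takes the 10 genes and, per list, up to 5 called genes per direction, ranked by fold change among those reaching 1 FPKM in at least 1 line, and the 2 most abundant uncalled ones. Python 3.11.15, numpy 2.4.6, pandas 2.3.3 and scipy 1.17.1 were used.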

Additional observations from a re-analysis of the deposited data

How the results depend on the processing

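The count of genes called higher in STHdhQ111 was 2, and it was 1 at a q of 0.01, under Bonferroni adjustment, with genes under a mean of 1 FPKM left out, and with a minimum of 2-fold on log2(FPKM + 0.5). The gene lost each time was Sparcl1, whose mean is under 1 FPKM. Leaving out genes under that mean removed Sparcl1 before adjustment, so its loss there was fixed by the filter. The count called lower was 4, and under Bonferroni adjustment it was 2, without Postn and Thbs2. The companion lists held 88 tested genes, of which 36 were called, against 13.5% of all tested genes. These 36 calls became 14 under Bonferroni adjustment, against 4.53% of all tested genes. They stayed within 1.5 times of 36 under the other 5 alternatives. Of 30 alternative log2 ratios of single genes, 29 moved by less than the implied standard error or kept their side of the threshold, and Sparcl1 became 0.55 with a pseudocount of 1. None changed sign. Without Sparc in the sum, the share of Spp1 was 4.34% in STHdhQ111 and 36.4% in STHdhQ7, and that of Fn1 was 53.5% in STHdhQ111 and 18.8% in STHdhQ7. The Thbs1 share was then 31.5% in STHdhQ111 and 28.6% in STHdhQ7, so the order of the lines turned round for this gene, because Sparc takes the larger part of the STHdhQ111 sum. No paired analysis was possible because the table holds 1 combined value per line.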

Other observations

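The nearest tested genes on either side of the 10 glycoprotein genes gave 18 further genes. Of these, 4 were called, against 13.5% of all tested genes, and the difference was not tested. These neighbours were listed after the values were seen. Smoc2, a SPARC relative 261 kb from Thbs2, had 9.18 FPKM in STHdhQ111 and 3.17 FPKM in STHdhQ7 and was called higher, whereas Thbs2 was called lower. Beside Tnc, Pappa, which encodes a protease of insulin-like growth factor binding proteins, lies 1077 kb away and had 5.67 FPKM in STHdhQ111 and 1.29 FPKM in STHdhQ7 (called higher), and 6330416G13Rik at 373 kb had 1.87 FPKM in STHdhQ111 and 0.537 FPKM in STHdhQ7 (called higher). Tgfbi stood between Fbxl21 (1.34 FPKM in STHdhQ111 and 0.731 FPKM in STHdhQ7) and Smad5 (11.0 FPKM in STHdhQ111 and 12.3 FPKM in STHdhQ7), neither of them called. Thbs3 starts 0.851 kb from Mtx1, a mitochondrial import gene that was not called (23.0 FPKM in STHdhQ111 and 21.1 FPKM in STHdhQ7). Of the 36-base words in the Thbs3 transcripts, 95.6% occurred in no other gene, and the rest were shared with Mtx1. The part of such shared words in the Thbs3 values was not tested.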
